A study of Mus musculus with 8 samples.

Results

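The Mmp, Timp, Adam, Adamts and Adamtsl genes were examined in whole lung of mice with and without a Fra-2 transgene. They were taken as every spot on the array whose platform gene symbol is Mmp, Timp, Adamts or Adamtsl followed by a number, or Adam followed by a number and an optional letter, with the brightest spot over the 8 arrays standing for each gene. This gave 81 genes, read by 132 spots, of 20863 genes tested: 21 Mmp, 4 Timp, 32 Adam, 19 Adamts and 5 Adamtsl genes. The rule uses names and brightness; the families themselves were picked with earlier results of these data known. Mmp1a and Mmp1b, whose symbols end in a letter, are outside the rule, as is Adamdec1. The study hybridised lung RNA of 4 wild-type mice and of 4 Fra-2 transgenic mice, each on a single-colour Agilent array with a Cy5 label. All 8 mice were on the C57BL/6 background and 8 weeks old, with no treatment named. The labels give neither the promoter that drives the transgene nor the sex of the mice. Fra-2, encoded by Fosl2, is a member of the AP-1 family of transcription factors.

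Matrix metalloproteinases (Mmps) are zinc enzymes that are made as inactive precursors and cut collagens, elastin, other matrix proteins and cell surface proteins. Timps bind the active site of Mmps and block them, and Timp3 also inhibits several Adam and Adamts enzymes. Adam proteins are membrane-anchored; some are sheddases that release growth factors and cytokines from the cell surface, while others lack enzymatic activity or serve mainly in sperm. Adamts enzymes are secreted and carry thrombospondin repeats; their substrates include proteoglycans, procollagens and von Willebrand factor, and Adamts-like proteins share the repeats without the protease domain. Several Mmp genes are textbook targets of AP-1, and matrix turnover is a central process in the scarring and vessel remodelling of lung disease.

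Levels are log2 of the normalised intensity, and differences are transgenic minus wild type on that scale, from limma with Benjamini-Hochberg adjustment over all genes and a threshold of 0.05. The median of all spots, 4.74, was used as a floor: a level under it is dim and its changes are poorly measured. Labels count mice as separate samples, and the number of arrays limits precision. Among arrays of one group the mean correlation over all spots was 0.966 for wild-type mouse 4, 0.971 for transgenic mouse 4 and 0.973 to 0.975 for the other 6 mice. Among genes above the floor, wild-type mouse 4 had the highest or the lowest of the 8 values in 25.5% and 26.5%, and transgenic mouse 4 in 20.1% and 21.6%, against 6.51% to 12.8% for any other mouse. Fosl2 was read by 2 spots of opposite direction (-0.75, SE 0.31, and 2.45, SE 0.47; limma p adjusted over all named spots 0.537 and 0.153). On the dimmer spot every transgenic mouse (6.35 to 7.85) was above every wild-type mouse (3.44 to 5.58), at least 4.06-fold and in the direction of the labels, with an exact two-sided permutation p of 0.0286; on the brighter spot the groups overlapped. Markers of lung epithelium, such as Sftpc, and of endothelium, such as Pecam1, were above the floor in 8 of 8 and 5 of 5 genes.

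Of the 81 genes 1 passed the test: Adamts14 fell, and 0 rose. Over all genes 45 passed, 0.216% of those tested, with 0.125% higher and 0.0911% lower. There were 9 of the 81 genes with an unadjusted limma p under 0.05, 4 higher and 5 lower, or 11.1%, beside 9.15% of all genes (5.33% higher and 3.82% lower). Values of the groups did not overlap in 2 of the 81, Adamts14 (lower) and Mmp17 (higher), where 6.53% of all genes had groups without overlap (3.99% higher and 2.54% lower). The median difference was -0.06, with 34 positive and 47 negative, against 0.01 over all genes, of which 52.4% were positive and 47.6% negative. Without wild-type mouse 4 the median was 0.00312 and the signs were 41 positive and 40 negative. By subfamily the medians were 0.02 for Mmp, -0.13 for Timp, -0.12 for Adam, -0.05 for Adamts and -0.30 for Adamtsl genes. For 45 of the 81 genes the 95% interval of the difference lay within 1 on either side of 0, and for 76 within 2. The mean over the 8 arrays was above the floor in 47 of the 81 genes, or 58.0%, against 68.6% of all genes, and in 32 genes both group means were under it.

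**Figure D1:**
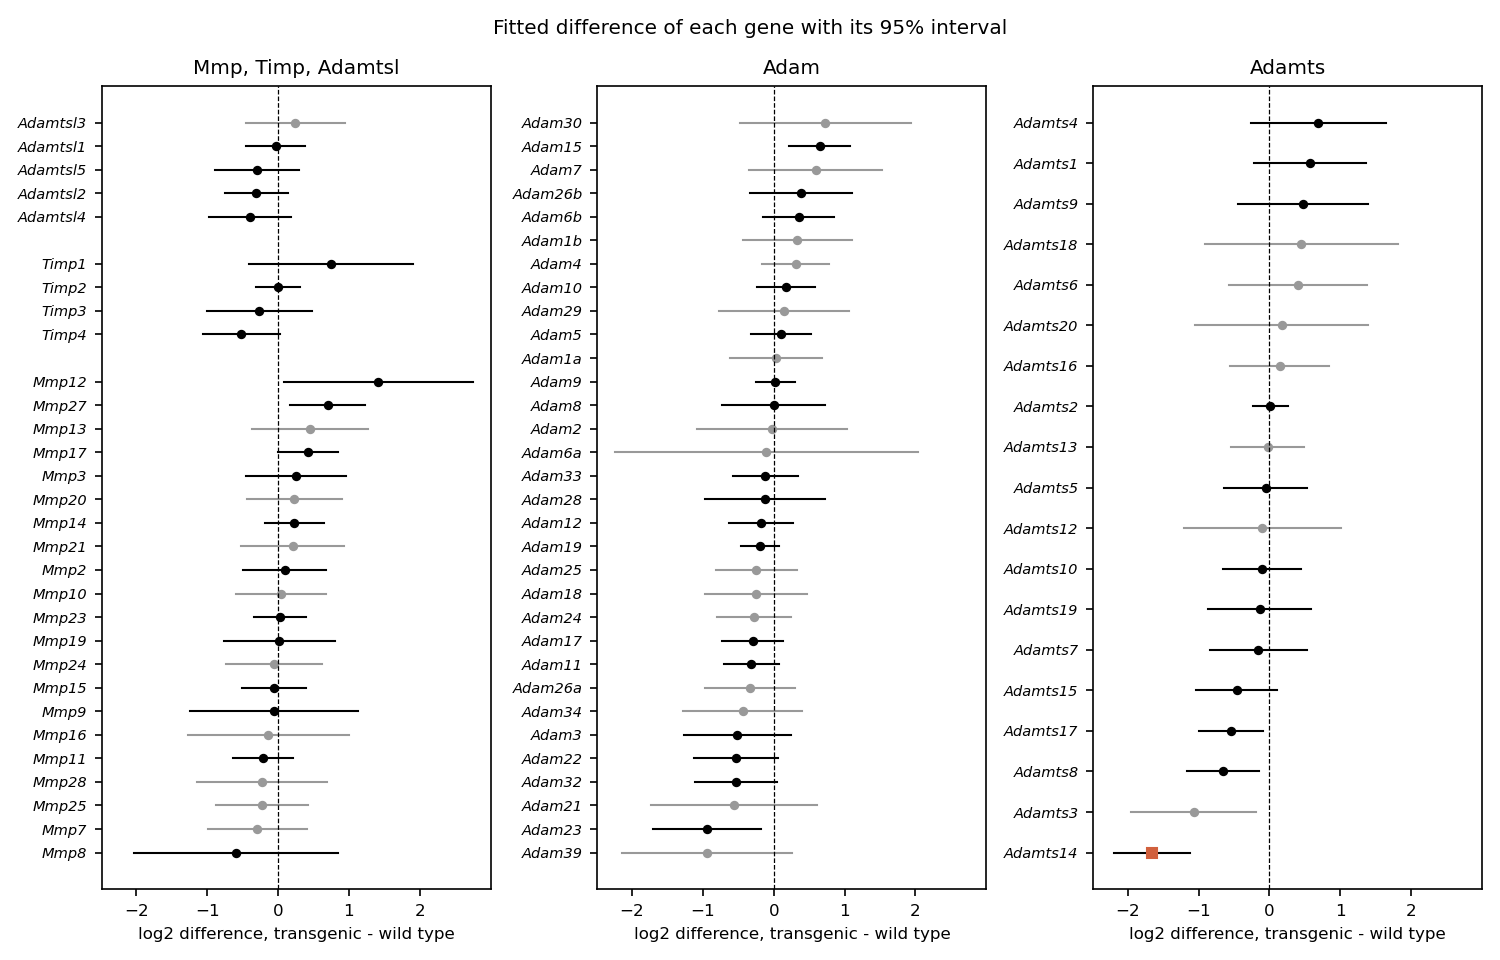
Fitted log2 difference, transgenic minus wild type (x axis), of each of the 81 genes (y axis), with its 95% interval as a line; grey marks genes with both group means under the floor, and the orange square the gene past the test. Adamts14 lies at -1.65, and most intervals of the other genes cross 0.

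Adamts14, a secreted protease that removes the amino-terminal propeptide of fibrillar procollagens, was 3.15-fold lower in transgenic lung. Its levels were 8.36, 8.76, 9.38 and 9.34 in wild-type mice 1 to 4 and 7.34, 7.39, 7.35 and 7.14 in transgenic mice 1 to 4. Every transgenic value lay below every wild-type value, and the transgenic mice were the tighter group, 7.31 ± 0.11 against 8.96 ± 0.49 (SD, n = 4 each). The difference was -1.65 (SE 0.23, 95% interval -2.19 to -1.12; limma adjusted p = 0.0449 over all genes), and a two-sided exact permutation gave p = 0.0286, which is the lowest value possible with 4 mice a group. The call lay close to the threshold. It was kept without wild-type mouse 1 (adjusted p = 0.0249) and lost without any 1 of the other mice (limma adjusted p from 0.0944 to 0.151), while the difference stayed between -1.85 and -1.51. It was also lost with the spots of the gene averaged (-1.25, adjusted p = 0.192) and without both mice numbered 4 (-1.47, adjusted p = 0.151). A second, dimmer spot of Adamts14 lay under the floor in all 8 mice, with group means of 4.01 and 3.16 (difference -0.85, SE 0.54). With every named spot tested separately the adjusted p of the brighter spot was 0.0501. Of 8 fibroblast markers, which mark the cells best known for procollagen processing, 6 had positive differences and 0 passed. In 1 of them, or 12.5%, every transgenic value was above every wild-type value, beside 3.99% of all genes. Their summed intensity overlapped, from 49094 to 53762 in wild-type and from 48290 to 60428 in transgenic mice. The summed intensity of smooth muscle markers was lower in every transgenic mouse, from 27183 to 34071 against 35011 to 45493. Of their differences 6 of 6 were negative, beside 47.6% over all genes, and 0 passed. In 1 of the 6, or 16.7%, every transgenic value was below every wild-type value, beside 2.54% of all genes. The part of smooth muscle cells in the Adamts14 result was not tested. In whole lung, fewer cells of a type and less RNA per cell cannot be told apart.

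The 120 bases before the start of Adamts14 are shown because it is the only one of the 81 genes past the test, and because they set its promoter beside those of the Mmp genes below. They lie at chr10:61273420-61273539 on the minus strand (RefSeq, GRCm38.p6) and are 86.7% G or C.
Adamts14: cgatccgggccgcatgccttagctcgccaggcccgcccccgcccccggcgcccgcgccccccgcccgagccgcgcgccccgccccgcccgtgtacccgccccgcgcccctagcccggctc
The whole window, from 250 bases before the start to 50 after it, held no AP-1 motif TGANTCA and no TGACGTCA, a related motif.

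The other procollagen-processing members did not pass. Adamts2, which acts on the same collagens, read 11.51, 11.55, 11.37 and 11.45 in wild-type and 11.58, 11.51, 11.43 and 11.40 in transgenic mice. The groups overlapped, with a difference of 0.0096 (95% interval -0.24 to 0.26). Adamts3 lay under the floor in all 8 mice, at 3.39, 3.72, 4.45 and 4.62 in wild-type and 3.52, 3.38, 2.09 and 2.91 in transgenic mice, and a fold is therefore left out (difference -1.07, limma adjusted p = 0.463). Of the collagens they process, Col1a1 is named for its unadjusted p under 0.05. It differed by 0.52 (SE 0.18, limma adjusted p = 0.432), with no call. That was the largest difference among the 8 fibroblast markers, which also hold Col1a2 and Col3a1. Those 8 differences ran from -0.39 to 0.52, with a median of 0.04.

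**Figure D2:**
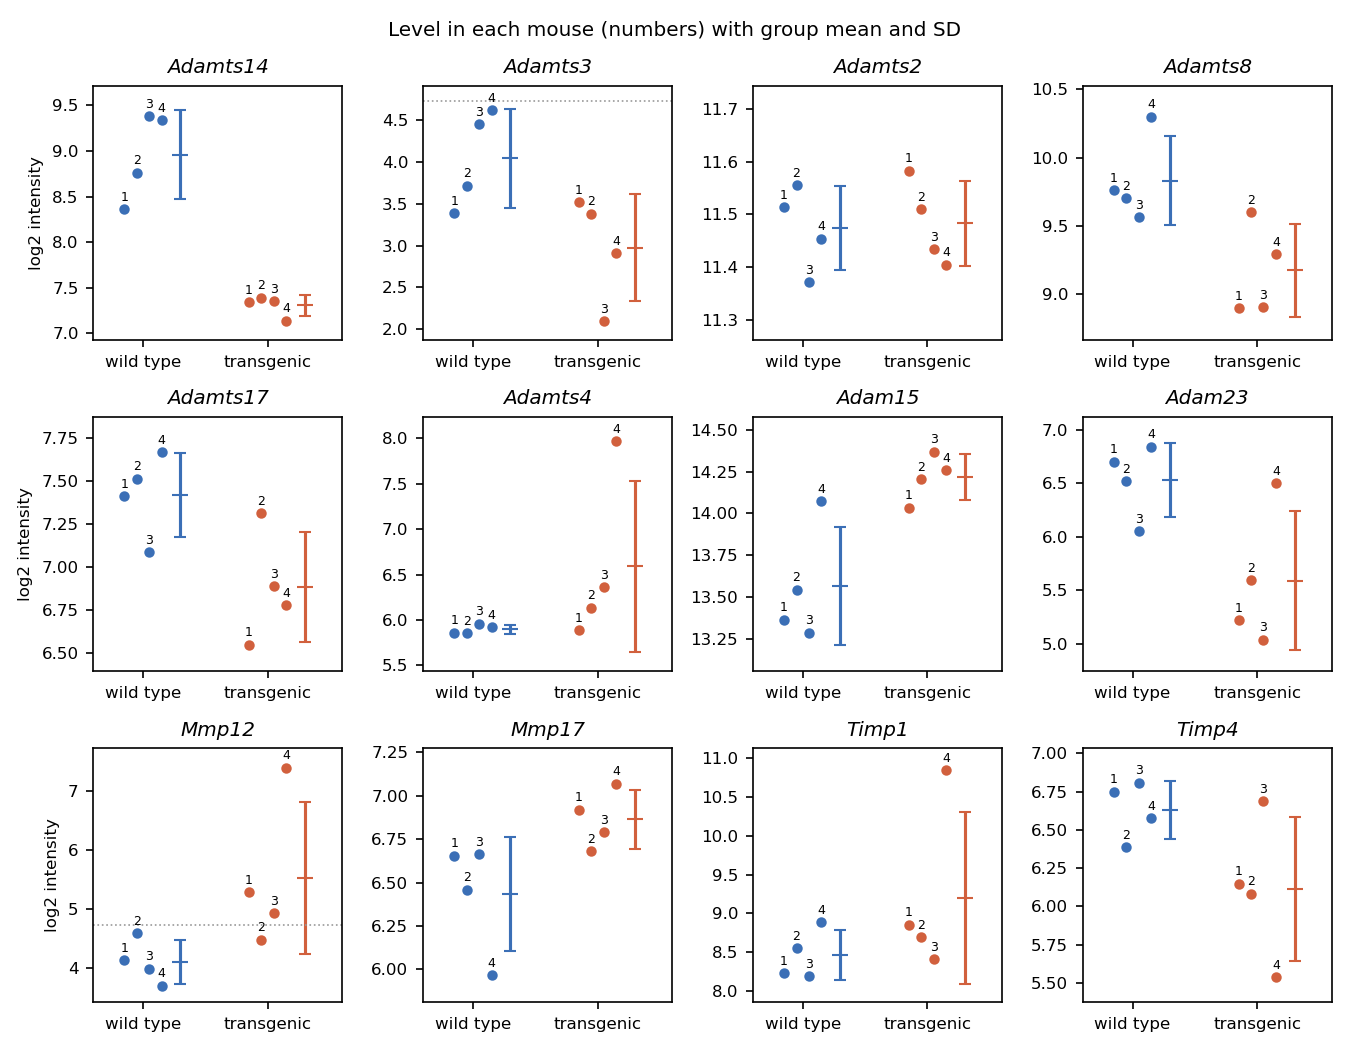
Level (y axis, log2 normalised intensity, scaled separately in each panel) of 12 genes in each mouse, with mouse numbers beside the points and the group mean and SD (n = 4) to the right of them; the dotted line is the floor of 4.74. Adamts14 shows no overlap between the groups, whereas for Adamts4, Mmp12 and Timp1 transgenic mouse 4 stands above all other mice.

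Of 7 proteoglycan-cleaving Adamts enzymes 4 had positive and 3 negative differences, and none passed the test. Adamts8, which is strongly expressed in lung, read 9.76, 9.70, 9.56 and 10.30 in wild-type and 8.90, 9.60, 8.91 and 9.30 in transgenic mice. Only transgenic mouse 2 reached into the wild-type range, and the difference was -0.65 (SE 0.22, limma adjusted p = 0.430). The dimmer spot of the gene went the same way (-0.38). Adamts15, another proteoglycanase, read 11.53, 10.57, 11.61 and 11.70 in wild-type and 10.75, 11.08, 10.86 and 10.86 in transgenic mice. Wild-type mouse 2 was below every transgenic mouse there, while the other 3 wild-type mice were above them all (difference -0.46). Adamts1, an enzyme that cleaves versican and aggrecan and is induced in endothelium by injury, read 11.50, 10.90, 10.93 and 12.20 in wild-type and 11.78, 11.64, 11.73 and 12.67 in transgenic mice. Adamts9, another of the proteoglycan-cleaving enzymes, read 8.51, 8.51, 8.68 and 9.84 in wild-type and 8.78, 9.24, 9.15 and 10.28 in transgenic mice. In both genes the mouse numbered 4 was the highest of its group, and the differences, 0.57 (SE 0.35) and 0.48 (SE 0.40), did not pass. Adamts4, an aggrecanase induced by inflammatory signals, was even across wild-type mice at 5.86, 5.86, 5.96 and 5.92. In transgenic mice it read 5.89, 6.14, 6.36 and 7.97, with mouse 4 far above the rest. The difference of 0.69 (SE 0.41) was 0.23 without that mouse. The second Adamts4 spot, the only one of the gene matched to RefSeq, differed by 0.62 (SE 0.27). It read 5.48, 4.76, 4.50 and 4.16 in wild-type and 5.26, 5.29, 5.27 and 5.57 in transgenic mice. There mouse 4 was again the highest but close to the other transgenic mice, and the groups overlapped. Adamts5, the other main aggrecanase, read 6.20, 5.88, 5.05 and 5.95 in wild-type and 5.97, 5.41, 5.70 and 5.77 in transgenic mice, with the ranges overlapping. Adamts20 lay under the floor in both groups on average.

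Among the remaining Adamts genes, Adamts17 read 7.42, 7.52, 7.09 and 7.67 in wild-type and 6.55, 7.31, 6.89 and 6.78 in transgenic mice. The ranges overlapped through transgenic mouse 2, and the difference was -0.54 (SE 0.20, limma adjusted p = 0.468). Its second spot, near the floor, differed by -0.60 (SE 0.18; limma p adjusted over all named spots 0.376). There the groups did not overlap, at 4.76 to 5.49 in wild-type and 4.26 to 4.65 in transgenic mice. On brightest spots 6.53% of all genes had groups without overlap. Adamts13, the protease that cuts von Willebrand factor, was under the floor in 7 of 8 mice, at 4.17, 3.95, 4.58 and 4.63 in wild-type and 4.74, 4.26, 4.34 and 3.89 in transgenic mice. Adamts6, Adamts12, Adamts16 and Adamts18 were under the floor on average in both groups. Adamts7, Adamts10 and Adamts19 differed by -0.11 to -0.16, with Adamts7 and Adamts19 near the floor at mean levels of 4.72 and 4.74. Adamts19 was read by 10 spots, of which 1 had a mean above the floor. Over these spots the mean difference was 0.16, with a range from -0.15 to 1.02. On the spot at 1.02 the groups did not overlap, but all 8 values were dim (limma p adjusted over all named spots 0.0764).

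The Mmp genes of a cluster on chromosome 9 are those best known for AP-1 control. Promoter windows of 300 bases were found in the RefSeq table (GRCm38.p6) for 50 of the 81 genes, and the motif TGANTCA, read on both strands, occurred in those of 10 genes, 20%, against 8.97% of all 27025 genes with a window. TGACGTCA was in none of the 50 and in 2.03% of all genes. Of 8 clustered Mmp genes among the 81, 6 held TGANTCA, 35 to 95 bases before the start, and these are shown with the motif in capitals; Mmp8 and Mmp27 had a window without it. Mmp12 has 2 starts in the table, and its match lies before the downstream one, inside the gene; the window of the other start holds no match.
Mmp13: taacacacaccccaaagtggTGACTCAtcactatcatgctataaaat
Mmp12: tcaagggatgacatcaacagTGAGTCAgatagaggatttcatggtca
Mmp3: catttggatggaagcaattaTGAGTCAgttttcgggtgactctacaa
Mmp10: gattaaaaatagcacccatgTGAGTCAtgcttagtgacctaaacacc
Mmp20: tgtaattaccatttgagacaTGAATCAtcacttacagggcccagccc
Mmp7: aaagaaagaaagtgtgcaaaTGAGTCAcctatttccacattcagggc
These windows lie on the plus strand at chr9:7272459-7272505 (Mmp13), chr9:7347310-7347356 (Mmp12), chr9:7445756-7445802 (Mmp3), chr9:7502259-7502305 (Mmp10), chr9:7628116-7628162 (Mmp20) and chr9:7692007-7692053 (Mmp7). The other matches were in Adam1b, Adam19, Adam25 and Adam29. A match is a description of letters and not a measured site.

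Of these 6 genes only Mmp3 was well above the floor, and none passed the test. Mmp3, stromelysin-1, which activates other Mmps and cuts proteoglycans, read 9.71, 9.69, 8.62 and 9.85 in wild-type and 10.06, 9.85, 9.16 and 9.82 in transgenic mice. Wild-type mouse 3 was the lowest and the groups overlapped (difference 0.25, 95% interval -0.46 to 0.97). Mmp12, the macrophage elastase, was under the floor in all wild-type mice, at 4.14, 4.60, 3.99 and 3.71, and read 5.29, 4.49, 4.93 and 7.40 in transgenic mice. Transgenic mice 1, 3 and 4 were above every wild-type mouse, and transgenic mouse 4 most of all. Set against the floor in place of the dim wild-type values, the transgenic mean was at least 1.73-fold higher, and at least 1.12-fold without transgenic mouse 4. The fitted difference was 1.42 (SE 0.58, limma adjusted p = 0.516), and 0.79 without transgenic mouse 4 (adjusted p = 0.455). The dimmer Mmp12 spot lay under the floor by its group means and differed by 0.79 (SE 0.34). Mmp13, a collagenase, was under the floor in all 8 mice, at 3.98, 3.69, 3.79 and 2.39 in wild-type and 3.59, 4.06, 3.68 and 4.32 in transgenic mice. Mmp7, matrilysin, an epithelial protease that is raised in human lung fibrosis, read 4.85, 3.83, 4.88 and 4.12 in wild-type and 3.71, 3.86, 4.66 and 4.28 in transgenic mice, under the floor on average in both groups. Mmp10, a stromelysin, and Mmp20, an enamel protease, were also under it by their group means. Of the 10 genes with TGANTCA, 7 had positive differences, 0 passed and 1 had an unadjusted p under 0.05. Only Mmp3, Mmp12 and Adam19 among these 10 had a mean above the floor, at 9.59, 4.82 and 10.81. Their differences were 0.25, 1.42 and -0.19, and the signs of the dim genes are poorly measured. Of the 40 genes with a window and no match, 16 had positive differences, 1 passed and 6 had an unadjusted p under 0.05. Over all genes 52.4% had positive differences and 9.15% an unadjusted p under 0.05, and the difference between these sets was not tested.

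Alveolar macrophage markers are given beside Mmp12. Their summed intensity ran from 37459 (wild-type mouse 4) to 82394 in wild-type mice and from 61893 to 98025 in transgenic mice, with the highest sum in transgenic mouse 4, which was also the highest for Mmp12. Of 7 alveolar macrophage genes 6 had positive differences, Itgax among them (0.62, SE 0.21, adjusted p = 0.430), while Marco fell (-2.08, SE 0.22, limma adjusted p = 0.0105). Their part in the Mmp12 values was not tested.

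No neutrophil Mmp passed the test. Mmp9, gelatinase B, was read by 10 spots, and within a mouse their SD was 0.239 to 0.377. The mean levels of these spots ran from 6.62 to 7.30, so this SD holds differences between spots as well as technical error. Means over the 10 spots were 6.94, 7.42, 8.42 and 5.65 in wild-type mice and 6.73, 6.81, 7.49 and 6.85 in transgenic mice. Wild-type mouse 3 was the highest and wild-type mouse 4 the lowest, while transgenic mice 1, 2 and 4 lay close to each other. The group means of 7.11 ± 1.15 and 6.97 ± 0.35 (SD, n = 4 each) differed by little beside the wild-type spread (difference -0.14, exact permutation p = 0.83, two-sided). The brightest spot alone read 7.14, 7.68, 8.60 and 5.91 in wild-type and 7.01, 7.11, 7.86 and 7.10 in transgenic mice, and 9 of the 10 spots had negative differences. Mmp8, the neutrophil collagenase, read 7.57, 7.22, 9.55 and 8.03 in wild-type and 7.38, 6.28, 7.53 and 8.81 in transgenic mice. It was highest in wild-type mouse 3, as Mmp9 was, and lowest in transgenic mouse 2 (difference -0.59, SE 0.63). The summed intensity of 9 neutrophil genes was also highest in wild-type mouse 3, at 150516, and lowest in transgenic mouse 2, at 68002, with 84261 in wild-type mouse 4. It ran from 84261 to 150516 in wild-type and from 68002 to 107775 in transgenic mice, all 9 genes were above the floor on average, and the part of these cells in the Mmp8 and Mmp9 levels was not tested. Mmp25, another neutrophil Mmp, lay under the floor in both groups by its means.

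**Figure D3:**
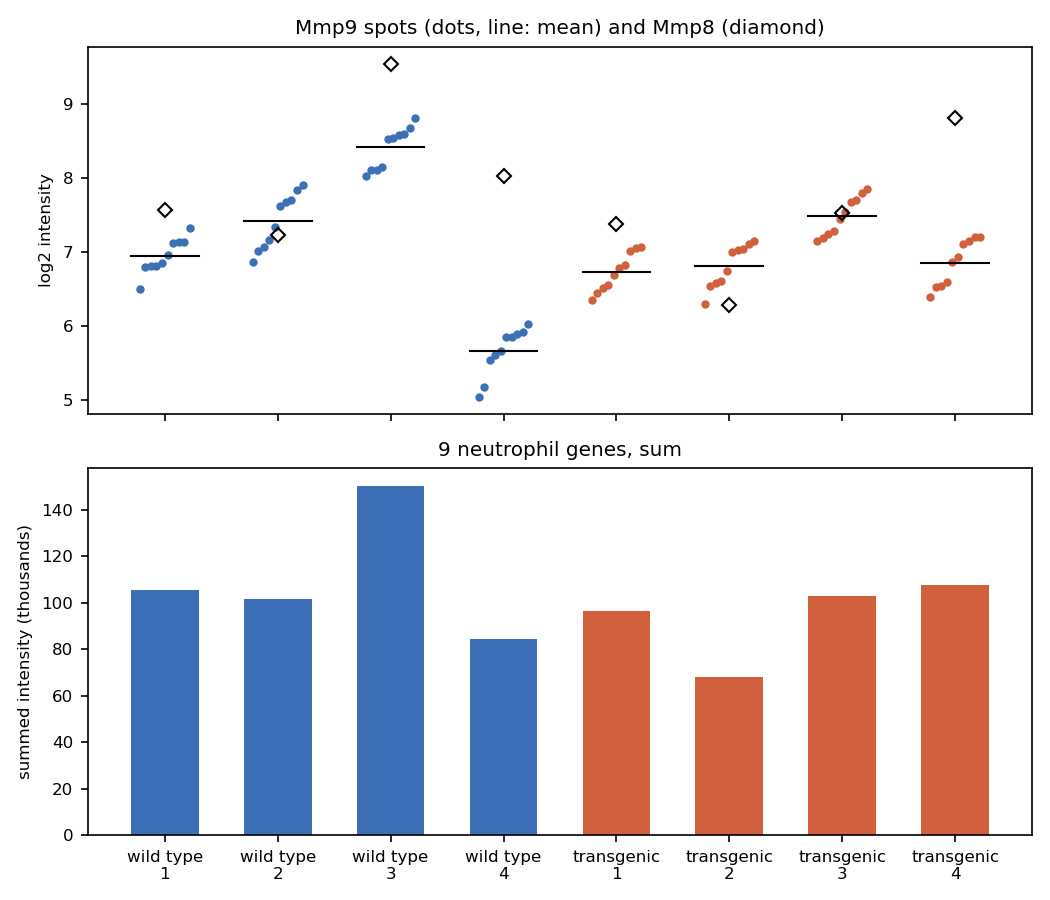
Upper panel: log2 normalised intensity (y axis) of the 10 Mmp9 spots (dots, with their mean as a line) and of the Mmp8 spot (diamonds) in each mouse (x axis). Lower panel: summed linear intensity of 9 neutrophil genes in the same mice; wild-type mouse 3 is highest in both panels, and Mmp9 is lowest in wild-type mouse 4.

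No stromal Mmp passed the test. Mmp2, gelatinase A of fibroblasts, read 9.74, 9.90, 9.70 and 8.82 in wild-type and 9.44, 9.97, 9.44 and 9.68 in transgenic mice. Wild-type mouse 4 was the lowest, and the difference was 0.09 (95% interval -0.49 to 0.67). Mmp14, the membrane-bound activator of Mmp2, read 7.83, 7.62, 7.62 and 7.03 in wild-type and 7.61, 7.81, 7.82 and 7.77 in transgenic mice. It too was lowest in wild-type mouse 4 (difference 0.23, 95% interval -0.19 to 0.64). Mmp11, stromelysin-3, read 10.74, 10.89, 10.62 and 10.79 in wild-type and 10.58, 10.96, 10.53 and 10.10 in transgenic mice, with a difference of -0.22 and -0.15 on its second spot. Mmp19, which cuts basement membrane proteins, read 6.26, 6.86, 5.73 and 5.58 in wild-type and 6.14, 5.80, 5.73 and 6.83 in transgenic mice, with a difference of 0.02. All 4 had overlapping groups.

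Of the 7 membrane-bound Mmps, Mmp17 was the only one with an unadjusted limma p under 0.05. Mmp17, a glycolipid-anchored enzyme, read 6.65, 6.46, 6.66 and 5.96 in wild-type and 6.92, 6.68, 6.79 and 7.07 in transgenic mice. All transgenic values were above all wild-type values, though transgenic mouse 2 and wild-type mouse 3 nearly touched. The difference was 0.43 (SE 0.18, limma adjusted p = 0.540; exact permutation p = 0.0286, two-sided), and 0.27 without wild-type mouse 4. Mmp15 and Mmp23 differed by -0.06 and 0.02, and Mmp16 and Mmp24 were under the floor. Mmp27 was dim, at 4.03, 4.24, 4.47 and 3.92 in wild-type and 4.59, 5.14, 4.43 and 5.30 in transgenic mice, with a difference of 0.70 (SE 0.23, adjusted p = 0.406) on 1 spot and -0.11 on the other. Mmp21 and Mmp28 were under the floor in both groups.

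All 4 Timps were above the floor in every mouse, and none passed the test. Timp1, the inducible inhibitor that rises with inflammation and fibrosis, read 8.22, 8.55, 8.19 and 8.88 in wild-type mice and 8.85, 8.69, 8.41 and 10.85 in transgenic mice. Transgenic mouse 4 stood far above the rest of its group, and the other 3 lay within the wild-type range. The difference of 0.74 (SE 0.50, limma adjusted p = 0.700) was 0.19 without transgenic mouse 4. Timp2, the constitutive inhibitor that also takes part in Mmp2 activation, read 15.17, 14.94, 15.12 and 15.09 in wild-type and 15.05, 15.27, 15.18 and 14.82 in transgenic mice. Its difference was -0.0016 (95% interval -0.31 to 0.30) on this spot, and 0.20 on the second. Timp3, which is bound to matrix and inhibits Adam17 and aggrecanases, read 14.88, 14.67, 15.17 and 14.00 in wild-type and 14.59, 14.58, 14.84 and 13.65 in transgenic mice, and was lowest in the mouse numbered 4 of each group (difference -0.26). The Timp2 and Timp3 values lie near the upper end of the scanner's scale. Timp4, known from heart, read 6.75, 6.39, 6.81 and 6.58 in wild-type and 6.15, 6.08, 6.69 and 5.54 in transgenic mice. Of the transgenic mice only mouse 3 lay within the wild-type range (difference -0.52, SE 0.24, limma adjusted p = 0.570). Cardiac muscle markers, 7 of 7 with negative differences, had their lowest sum in transgenic mouse 4 as well, 7084 against 21194 to 59443 in the other mice, and their part in the Timp4 values was not tested.

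None of the 9 catalytic Adams known from somatic tissues passed the test. Adam15, a disintegrin of endothelial and epithelial cells, read 13.36, 13.55, 13.29 and 14.07 in wild-type and 14.03, 14.21, 14.37 and 14.26 in transgenic mice. Wild-type mouse 4 alone reached the transgenic range; the difference was 0.65 (SE 0.19, limma adjusted p = 0.342), and 0.82 (adjusted p = 0.0944) without that mouse. With an offset of 32 before the log2 and both mice numbered 4 left out it passed (0.80, adjusted p = 0.0244). Adam10, the sheddase of Notch and cadherins, read 11.63, 11.57, 11.64 and 12.21 in wild-type and 11.82, 11.77, 11.97 and 12.17 in transgenic mice, with the highest value of wild-type mice in mouse 4 (difference 0.17, 95% interval -0.23 to 0.58). Adam17, which releases tumour necrosis factor and ligands of the epidermal growth factor receptor, read 5.68, 6.06, 5.58 and 6.33 in wild-type and 5.52, 5.85, 5.56 and 5.52 in transgenic mice. The difference was -0.30 (SE 0.19) on the brighter spot and 0.25 on the other. Adam9 was even, at 12.29, 12.22, 12.35 and 12.26 in wild-type and 12.41, 12.27, 12.09 and 12.44 in transgenic mice, with the narrow interval of -0.25 to 0.30. Adam8, a sheddase of leukocytes, read 9.97, 9.82, 10.78 and 10.36 in wild-type and 10.21, 9.90, 9.79 and 11.02 in transgenic mice, highest in transgenic mouse 4 and wild-type mouse 3 (difference -0.0013). Adam33, known from asthma genetics and smooth muscle, read 7.76, 7.38, 7.63 and 8.21 in wild-type and 7.54, 7.56, 7.45 and 7.97 in transgenic mice (difference -0.12). Adam12, a marker of activated mesenchymal cells, was near the floor at 4.63, 4.99, 4.61 and 5.41 in wild-type and 4.88, 4.68, 4.56 and 4.77 in transgenic mice. Adam19 and Adam28 differed by -0.19 and -0.12.

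Adam11, Adam22 and Adam23, which lack the catalytic site and serve mainly as neuronal adhesion proteins, all had negative differences. Adam23 read 6.71, 6.52, 6.05 and 6.84 in wild-type and 5.22, 5.59, 5.04 and 6.50 in transgenic mice. Transgenic mouse 4 lay within the wild-type range and the other 3 below it. The difference was -0.94 (SE 0.33, limma adjusted p = 0.442), and -1.25 without transgenic mouse 4 (adjusted p = 0.143). The other 2 spots of Adam23, with mean levels of 4.56 and 3.44 and thus under the floor, went the same way, at -0.83 (SE 0.20) and -0.84 (SE 0.44). On the brighter of these 2 the groups did not overlap (limma p adjusted over all named spots 0.241). It read 4.80 to 5.14 in wild-type mice, above the floor, and 3.71 to 4.57 in transgenic mice, under it. Dimmer spots of Adam26a and Mmp24 also had groups without overlap, with every value under the floor. Among all genes on their brightest spots 6.53% had groups without overlap, and the share over all named spots was not counted. Adam22 differed by -0.53 and Adam11 by -0.32, the latter with 0.21 on its second spot; neither passed.

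The other 20 Adam genes are known mainly from testis or epididymis. In 15 of them both group means lay under the floor, 0 passed and 0 had an unadjusted p under 0.05, and their median difference was -0.06. Of these 20, Adam3, Adam5, Adam6b, Adam26b and Adam32 had a mean above the floor, between 4.81 and 5.86. All 6 testis markers, protamines among them, were under it.

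Adamts-like proteins bind fibrillin microfibrils and do not cut. Of the 5 genes 4 had negative differences and none passed (range -0.40 to 0.24). Adamtsl2, whose loss disturbs fibrillin and bronchial development, read 8.89, 8.14, 8.66 and 8.75 in wild-type and 8.14, 8.58, 8.11 and 8.38 in transgenic mice (difference -0.31). Adamtsl4 read 11.31, 11.04, 11.15 and 11.29 in wild-type and 10.91, 11.12, 11.16 and 10.02 in transgenic mice, with transgenic mouse 4 below all others. Adamtsl5 read 8.59, 7.94, 8.42 and 7.88 in wild-type and 7.97, 8.18, 8.21 and 7.28 in transgenic mice, and transgenic mouse 4 was again the lowest. Adamtsl1 differed by -0.04, and Adamtsl3 was under the floor.

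**Figure D4:**
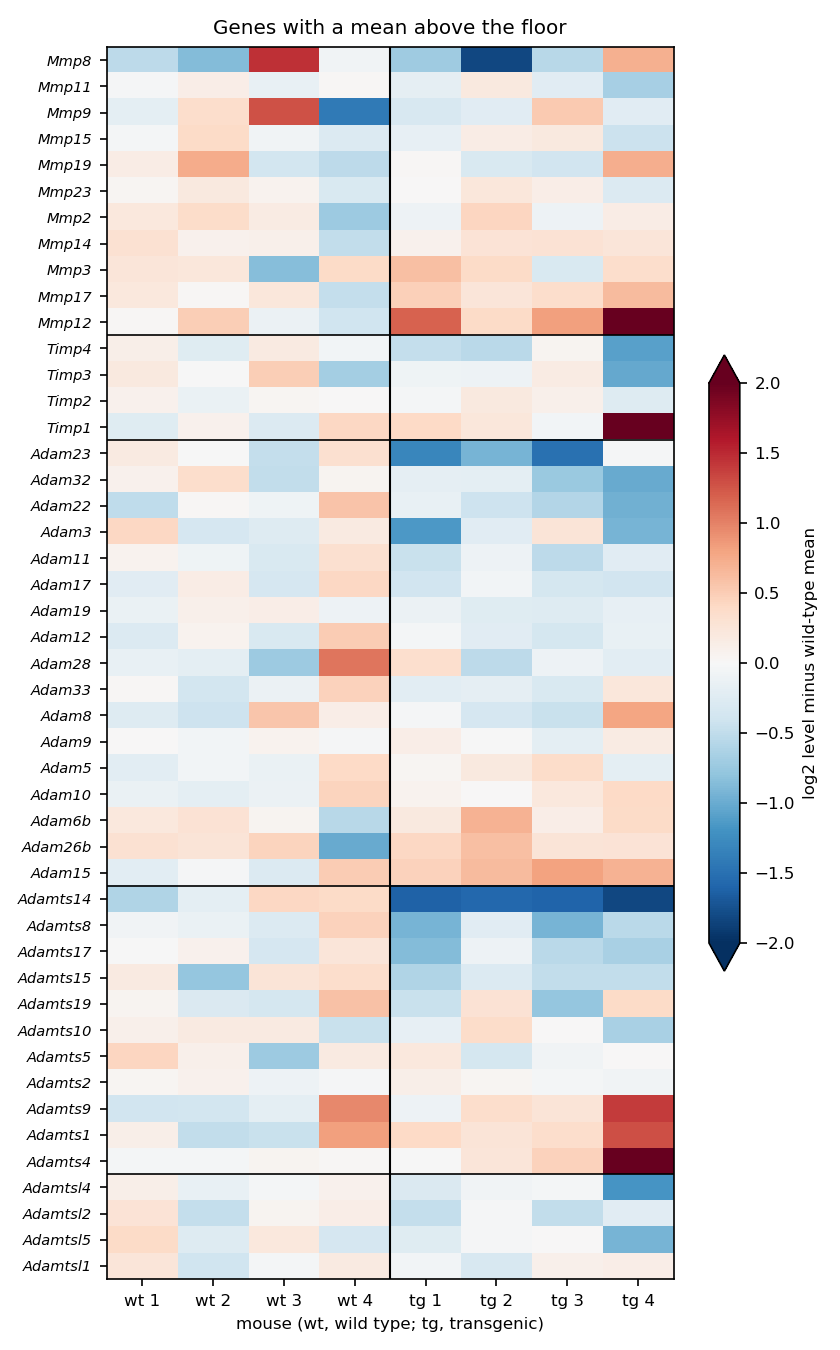
Level minus the wild-type mean (colour, log2 scale, limited to 2 on either side) in each of the 8 mice (columns; wt, wild type; tg, transgenic) for the 47 genes with a mean above the floor (rows), grouped as Mmp, Timp, Adam, Adamts and Adamtsl genes. Adamts14 is low in all 4 transgenic mice, and Timp1, Mmp12 and Adamts4 stand out in transgenic mouse 4.

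Among the 47 genes with a mean above the floor, transgenic mouse 4 gave the highest of the 8 values in 8 and the lowest in 11, and wild-type mouse 4 the highest in 13 and the lowest in 9. As shares these were 17.0% and 23.4%, and 27.7% and 19.1%, beside the 20.1% and 21.6%, and 25.5% and 26.5%, of all genes above the floor. Of the 31 genes with more than 1 spot, 13 had 2 or more spots brighter than the floor, and 6 of these 13 had a single sign over such spots.

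In 6 lists of other genes of the protease system no gene passed the test; none of the lists below was chosen without earlier results of these data in view. Over all genes 9.15% had an unadjusted p under 0.05, 5.33% higher and 3.82% lower, and the share of each list is given for comparison. Of 13 plasminogen activation genes 0 passed and 2, or 15.4%, had an unadjusted p under 0.05 (median 0.08): Plau, the urokinase activator of plasminogen, differed by 0.60 (SE 0.15, limma adjusted p = 0.263), and S100a10, a plasminogen-binding subunit, by 0.84 (SE 0.23, adjusted p = 0.296), each with no overlap of the groups, as in 6.53% of all genes. Among 16 cathepsin-related genes 0 passed and 3, or 18.8%, were lower at that level (median 0.09). Ctsa differed by -1.32 (SE 0.29), Ctsw, a cathepsin of cytotoxic lymphocytes, by -0.89 (SE 0.22) and Ctsf by -0.36 (SE 0.16). Of 17 activators and inhibitors of Mmps 0 passed, 4 were higher and 1 lower at that level, 29.4% in all (median -0.01). The proprotein convertases Pcsk5 and Pcsk6, which belong to the enzymes that cut the propeptides of these proteases, differed by 0.53 (SE 0.20) and 0.53 (SE 0.17), and Tfpi2, an inhibitor of serine proteases, by 0.70 (SE 0.28) at levels near the floor. Spock2, a matrix proteoglycan, differed by -0.52 (SE 0.13). Of 15 Adam partners only Tspan33, a tetraspanin, had an unadjusted p under 0.05, or 6.67% (-0.56, SE 0.14). Groups without overlap were found in the other lists too, beside 6.53% of all genes. Their shares were 18.8% of the cathepsin-related genes, 17.6% of the activators and inhibitors and 6.67% of the Adam partners.

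Substrates of these enzymes did not pass the test. Of 20 genes whose products are shed by Adam10 or Adam17, 1 was higher and 3 were lower with unadjusted p-values under 0.05, or 20%, beside 9.15% of all genes (median 0.03). Dll1, a Notch ligand, differed by 0.77 (SE 0.28), Cxcl16 by -0.48 (SE 0.12), Notch2 by -0.36 (SE 0.10) and Il6ra, the interleukin 6 receptor, by -0.54 (SE 0.17). Of 20 matrix substrates of Mmp and Adamts enzymes 4 were higher and 0 lower at that level, or 20%, beside 5.33% higher and 3.82% lower over all genes (median 0.10): Lama1 by 0.98 (SE 0.31), Col4a1 by 0.73 (SE 0.24), Col4a2 by 0.60 (SE 0.24), and Col1a1 by the 0.52 given above. Their limma adjusted p-values over all genes ran from 0.379 to 0.505. Groups did not overlap in 10% of the shed and 15% of the matrix substrates, beside 6.53% of all genes.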

How the data were processed

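Whole-lung RNA of 8 mice was hybridised to Agilent arrays in a single colour, with 1 array for each mouse. The authors deposited a single table of normalised intensity values on a linear scale; R 2.15.1 with limma 3.14.4 is listed in the submitters' processing notes, and how background was handled and arrays were scaled is not stated there. All 8 deposited intensity columns share nearly the same distribution (median about 26.6). No scanner files, and so no background flags, were used here. Log2 was taken of the deposited intensity with no offset. Of 62976 spots 31465 carried 1 platform gene symbol, and 31511 were left unnamed; 29050 were matched to RefSeq, which replaced 2933 symbols. The spot with the highest mean over the 8 arrays stood for each of 20863 genes. Transgenic and wild-type mice were compared with limma 3.58.1 (lmFit and eBayes, R 4.3.3) with Benjamini-Hochberg adjustment and a threshold of 0.05; single values were also tested by an exact two-sided permutation of mice. The floor of 4.74 was chosen after the values were seen, and the genes and lists were chosen with earlier results of these data known. Values in every mouse are given for a fixed list of 23 well-known genes, for genes past the test or with an unadjusted p under 0.05, and for the 3 brightest genes of each subfamily; of each pathway list, up to 4 genes with an unadjusted p under 0.05 are named. Same-numbered mice deviated together little if at all (correlations from -0.01 to 0.05), so the numbers were not taken as pairs. For wild-type mice 1, 3 and 4 the same-numbered transgenic mouse still gave the highest correlation. For mouse 4 it was 0.05, against -0.04 to -0.01 with the other transgenic mice. Alternatives were the scaling, the offset, a filter on dim genes, eBayes settings, array weights, the mean of spots, a replicate block, the threshold and leaving out mice. On simulated data for this comparison (20863 genes, 4 against 4), shifts of 0.5, 1, 2 and 4 on the log2 scale were recovered in 0%, 30%, 66% and 98% of shifted genes. Data handling used the R package data.table, version 1.17.8, Python 3.11.15, pandas 2.3.3 and matplotlib 3.10.9.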

Additional observations from a re-analysis of the deposited data

Results flagged for a closer look

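In 7 of the 76 groups of 4 mice examined, 1 mouse lay apart from the other 3 by a gap beyond the 95% critical value of Dixon's test; chance alone gives about 1 group in 20. Adamts15 was 10.57 in wild-type mouse 2, against 11.53 to 11.70 in the other wild-type mice. Adamts1 was 12.67 in transgenic mouse 4, against 11.64 to 11.78. Adam17 was 5.85 in transgenic mouse 2, against 5.52 to 5.56. Adamts9 was 9.84 and Adam10 was 12.21 in wild-type mouse 4, against 8.51 to 8.68 and 11.57 to 11.64. Mmp3 was 8.62 in wild-type mouse 3, against 9.69 to 9.85. Mmp9 was 7.86 on its brightest spot in transgenic mouse 3, against 7.02 to 7.11. The high values of transgenic mouse 4 for Timp1, Adamts4 and Mmp12, described above, stayed within the critical value.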

How the results depend on the processing

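The number of the 81 genes past the test, 1 as reported, was 0 when spots of a gene were averaged, 0 with a replicate block, 0 with both mice numbered 4 left out, and 2 (Adam15 and Adamts14) with an offset of 32 and both of those mice left out. Leaving out 1 mouse at a time gave 0 to 1. With the replicate block, which the pairing check did not call for, 5 of all genes passed against 45; under the other alternatives this count ran from 17 to 200. For Adamts14 the difference ran from -1.85 to -1.25, always negative. The number at an unadjusted limma p under 0.05 stayed between 7 and 11, and the median difference between -0.09 and 0.00312. The genes behind that number changed, and only Adam15 and Adamts14 were at that level under every alternative. Without wild-type mouse 4, for example, Adam23, Adamts3, Adamts17, Mmp12 and Mmp17 left it, and Adam10, Adam30 and Adamts1 entered. Adamts1 also entered with array weights, with the replicate block and without both mice numbered 4. None of the 9 genes at that level as reported changed sign under any alternative run, while up to 7 of 38 named genes did so under 1 of them. Dividing each array by its 75th percentile changed no call. With 4 mice a group, and with 32 of the 81 genes under the floor in both groups, precision limits what could be seen.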
